A study of Mus musculus with 6 samples.

Results

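Homeostatic microglial surface genes are the receptors and membrane proteins by which unprovoked microglia are recognised and through which they sense their surroundings. The 10 genes described here were taken by symbol from a table of 21851 genes, and all 10 were found and passed the filter on low counts that left 13477 genes for testing. They are Cx3cr1, P2ry12, P2ry13, Gpr34, Siglech, Fcrl2, Selplg, Tmem119, Olfml3 and Slc2a5. No measured value of CKO against flox was part of the rule that chose them, but the list was chosen with earlier results of these data known.

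The data are 6 bulk RNA-seq libraries of mouse retinal cells sorted by flow cytometry as CD45+ with intermediate CD11b, a gate that the labels call microglia. The 3 CKO libraries carry a conditional knockout of Cd36, the scavenger receptor for fatty acids and lipoproteins, and the 3 flox libraries are labelled CD36 flox. The treatment protocol, which all 6 share word for word, describes intravenous sodium iodate (NaIO3), which is toxic to the pigment epithelium of the retina (20 mg/kg), controls given vehicle, and eyes taken 7 days later. No label used here gives the treatment of a single library, the strain, the age of the mice or the Cre driver, so it cannot be told whether the driver is one of the Cre lines built into the Cx3cr1 locus itself. Description codes place CKO 1 under CKO2, CKO 2 and CKO 3 under CKO5, flox 1 under WT1, and flox 2 and flox 3 under WT3, and the members of a shared code differ only in OD or OS, the marks for right and left eye. The 6 libraries may therefore come from 4 mice, in which case the p-values below, which count each library as a replicate, are smaller than they should be.

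Resting microglia hold a set of surface receptors that tie them to neurons and to the extracellular fluid. CX3CR1 binds fractalkine, a chemokine that neurons display and shed. P2RY12 and P2RY13 sense ADP, and P2RY12 steers microglial processes towards sites of ATP release. In injured or inflamed tissue many of these genes are known to be expressed at lower levels, and blood monocytes that enter the tissue carry CX3CR1 and the selectin ligand PSGL-1 but little P2RY12 or TMEM119.

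The libraries held 13462683 to 20018910 counts, and no gene of the 13477 tested passed edgeR's quasi-likelihood test after Benjamini-Hochberg adjustment (0.00% called), with 379 at an unadjusted p under 0.05, while DESeq2 called 18 of the genes to which it gave an adjusted p (0.136%). Cd36 was counted at 122, 65.2 and 28.5 CPM (counts scaled to a common library size, with TMM factors) in the libraries labelled CKO 1 to 3 and at 90.5, 193 and 144 CPM in flox 1 to 3, so the library labelled CKO 1 lies within the flox range. Haemoglobin transcripts summed to more than 100 CPM in CKO 1, flox 2 and flox 3, called haemoglobin-positive here, and to under 1 CPM in CKO 2, CKO 3 and flox 1, called haemoglobin-negative. Across 8605 genes with a mean of at least 10 CPM, flox 1 was more similar to CKO 3 (Pearson r = 0.957 across genes, which are not independent) than to flox 2 (0.919) or flox 3 (0.914). A sum was taken over 11 markers used for microglia, Csf1r and the complement genes C1qa to C1qc among them. It came to 24825 to 44879 CPM in the CKO libraries and 28087 to 34229 CPM in the flox libraries. Other macrophages also express Csf1r and C1qa, so this sum does not tell microglia from them.

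Promoter sequence was at hand for 7 of the 10 genes (that of Fcrl2 under its earlier symbol Fcrls; RefSeq, GRCm38.p6, 250 bases before to 50 after the start of transcription). Cx3cr1 is shown because it stood apart from the other genes in the comparison below, and P2ry13 and Siglech because they followed the common pattern and hold the core letters GAGGAA of a PU.1 site, PU.1 being the master transcription factor of microglia. Fcrl2 is shown because it holds the same letters and did not follow that pattern. Capitals mark GAGGAA or its reverse complement.
Cx3cr1: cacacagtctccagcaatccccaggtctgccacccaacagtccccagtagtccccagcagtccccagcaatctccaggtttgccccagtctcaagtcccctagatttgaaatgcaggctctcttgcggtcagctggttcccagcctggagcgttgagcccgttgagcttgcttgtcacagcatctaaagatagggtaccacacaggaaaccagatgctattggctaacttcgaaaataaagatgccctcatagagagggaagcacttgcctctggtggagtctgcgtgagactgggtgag
P2ry13: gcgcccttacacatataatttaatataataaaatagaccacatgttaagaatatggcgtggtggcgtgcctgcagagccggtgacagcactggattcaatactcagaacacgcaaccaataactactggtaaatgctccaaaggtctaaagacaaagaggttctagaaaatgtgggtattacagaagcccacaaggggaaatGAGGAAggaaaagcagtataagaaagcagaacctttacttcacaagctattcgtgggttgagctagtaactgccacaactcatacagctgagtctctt
Siglech: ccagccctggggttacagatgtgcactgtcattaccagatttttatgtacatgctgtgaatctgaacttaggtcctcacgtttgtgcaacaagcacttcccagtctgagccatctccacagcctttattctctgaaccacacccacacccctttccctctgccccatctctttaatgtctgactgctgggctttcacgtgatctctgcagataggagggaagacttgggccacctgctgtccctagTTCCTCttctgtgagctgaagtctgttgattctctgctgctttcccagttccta
Fcrl2: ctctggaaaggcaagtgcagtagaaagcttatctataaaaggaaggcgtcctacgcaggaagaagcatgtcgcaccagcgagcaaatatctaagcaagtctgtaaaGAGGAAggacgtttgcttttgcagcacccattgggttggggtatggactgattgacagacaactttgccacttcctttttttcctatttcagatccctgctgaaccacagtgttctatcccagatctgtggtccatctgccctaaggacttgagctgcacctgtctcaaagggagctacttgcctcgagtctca
The Cx3cr1 window is chr9:120068247-120068546 on the minus strand, that of P2ry13 chr3:59210833-59211132 on the minus strand, that of Siglech chr7:55767934-55768233 on the plus strand, and that of Fcrl2 chr3:87263475-87263774 on the minus strand. GAGGAA, read on both strands, was found in 3 of the 7 windows, and in 28.3% of 32851 promoter windows of 300 bases. In P2ry13 the match begins at base 203 of the window on the strand of the gene, in Fcrl2 at base 107 on the strand of the gene, and in Siglech at base 247 on the opposite strand. The letters CAGAC, the core of a SMAD site in TGF-beta signalling, which do not overlap with GAGGAA, were found in 5 of the 7 windows and in 49.6% of all windows, with 2 matches in Cx3cr1, 2 in Fcrl2, 3 in Siglech and 0 in P2ry13. These are matches of letters and not measured binding.

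Cx3cr1, the fractalkine receptor gene (chromosome 9, 119901616 to 120069879, minus strand, GRCm38), was the member whose CKO and flox libraries did not overlap. Its level was 130.0, 188 and 111 CPM in CKO 1 to 3, against 221, 476 and 323 CPM in flox 1 to 3. Every flox library lay above every CKO library, with flox 1 the nearest. The means were 143 ± 40.1 CPM in CKO and 340 ± 128 CPM in flox (SD, n = 3 each), a log2 fold change of -1.25 (SE 0.31), or 42.1% of the flox level in the fit. The unadjusted p was 0.00392, the 27th smallest among 13477 genes, and the adjusted p was 0.9996 (edgeR quasi-likelihood test, Benjamini-Hochberg), so the difference did not pass. DESeq2 gave an adjusted p of 0.0688, and in the 16 other fits across all genes the adjusted p was 0.349 or more. Such non-overlap with CKO lower was seen for 4.12% of all genes tested, and an unadjusted p under 0.05 with CKO lower for 1.37%. The annotated span of Cx3cr1 overlaps with other genes on both strands. Cx3cr1 shares 78 exon bases (1.73% of its exons) with Gm33858 on the opposite strand, and 0 with Gorasp1, Csrnp1 and Xirp1 on its own.

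The purinergic receptor genes P2ry12 (chromosome 3, 59216272 to 59262871) and P2ry13 (chromosome 3, 59207892 to 59210882) are neighbours on the minus strand. P2ry12 stood at 90.1, 139 and 110.2 CPM in CKO 1 to 3, and at 82.4, 324 and 194 CPM in flox 1 to 3. Flox 2 and flox 3 lay above all CKO libraries, and flox 1 lay below them. P2ry13 stood at 51.5, 79.4 and 45.3 CPM in CKO 1 to 3, and at 49.7, 159 and 93.9 CPM in flox 1 to 3, with flox 1 inside the CKO range. The log2 fold changes were -0.82 (SE 0.44) for P2ry12 and -0.78 (SE 0.41) for P2ry13, with unadjusted p-values of 0.102 and 0.0976, and neither passed (adjusted p = 0.9996 by edgeR). Both genes lie within Med12l, a gene on the opposite strand with which P2ry12 shares 9 exon bases and P2ry13 0. The strand setting of the count is not given in the sources used here, so a part of their reads cannot be assigned with certainty.

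Gpr34, a receptor gene for lysophosphatidylserine (chromosome X, 13632089 to 13640858, plus strand, within Cask on the opposite strand), stood at 97.1, 133 and 68.6 CPM in CKO 1 to 3. In flox 1 to 3 it stood at 51.6, 270.0 and 201 CPM. Flox 1 was again the lowest of the 6 libraries, and flox 2 and flox 3 the highest. The log2 fold change was -0.81 (SE 0.54, unadjusted p = 0.179, adjusted p = 0.9996 by edgeR).

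Among the lectin and immunoglobulin-like receptors, Siglech and Fcrl2 differed from each other. Siglech is a gene of the Siglec lectin family whose product signals through the adaptor TYROBP (chromosome 7, 55768178 to 55778925). It stood at 53.4, 103 and 57.7 CPM in CKO 1 to 3, and at 34.7, 287 and 129 CPM in flox 1 to 3. The flox libraries thus spanned a range of 8.27-fold, which enclosed the whole CKO range. In the fit Siglech had a log2 fold change of -1.07 (SE 0.66, unadjusted p = 0.147, adjusted p = 0.9996 by edgeR). Fcrl2, an Fc receptor-like gene of mouse microglia known earlier as Fcrls, stood at 500.2, 671 and 346 CPM in CKO 1 to 3, and at 239, 535 and 474 CPM in flox 1 to 3. Here CKO 2 was the highest library and flox 1 the lowest, and CKO 1 lay between flox 3 and flox 2. In the fit Fcrl2 had a log2 fold change of 0.28 (SE 0.34, unadjusted p = 0.434, adjusted p = 0.9996 by edgeR), which came to 0.0037 without flox 1 and 0.023 without CKO 2.

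Selplg encodes PSGL-1, the ligand by which leukocytes roll on P-selectin, and lies near Tmem119 on chromosome 5 (113818536 to 113832644 and 113793729 to 113800516, both on the minus strand). Selplg stood at 326, 393 and 246 CPM in CKO 1 to 3, and at 247, 672 and 469 CPM in flox 1 to 3. Tmem119, a membrane protein gene used to tell microglia from blood-derived macrophages, stood at 249.5, 269 and 235 CPM in CKO 1 to 3, and at 201, 287 and 174 CPM in flox 1 to 3. Tmem119 was the steadiest of the 10 genes, and its highest and lowest library were both of code WT3. The log2 fold changes were -0.52 (SE 0.35, unadjusted p = 0.175) for Selplg and 0.19 (SE 0.21, unadjusted p = 0.396) for Tmem119, and neither passed (adjusted p = 0.9996 by edgeR).

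Olfml3 and Slc2a5 differ in kind from the receptors. Olfml3 encodes a secreted olfactomedin-like glycoprotein rather than a membrane protein (chromosome 3, 103722222 to 103738001, minus strand), and stood at 477, 512 and 321 CPM in CKO 1 to 3, against 289, 1014 and 761 CPM in flox 1 to 3. Slc2a5, the gene of the fructose transporter GLUT5 (chromosome 4, 150119283 to 150144169, plus strand), stood at 3.37, 3.52 and 1.23 CPM in CKO 1 to 3 (55, 42 and 24 counts), against 1.70, 18.9 and 9.29 CPM in flox 1 to 3 (35, 365 and 147 counts). Both genes were highest in flox 2 and flox 3, with flox 1 below the CKO range for Olfml3 and inside it for Slc2a5. The log2 fold changes were -0.66 (SE 0.42, unadjusted p = 0.162) for Olfml3 and -1.89 (SE 0.82, unadjusted p = 0.0511) for Slc2a5, and neither passed (adjusted p = 0.9996 by edgeR). Without flox 2 the log2 fold change of Slc2a5 was -1.02 and without flox 1 it was -2.39.

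**Figure D1:**
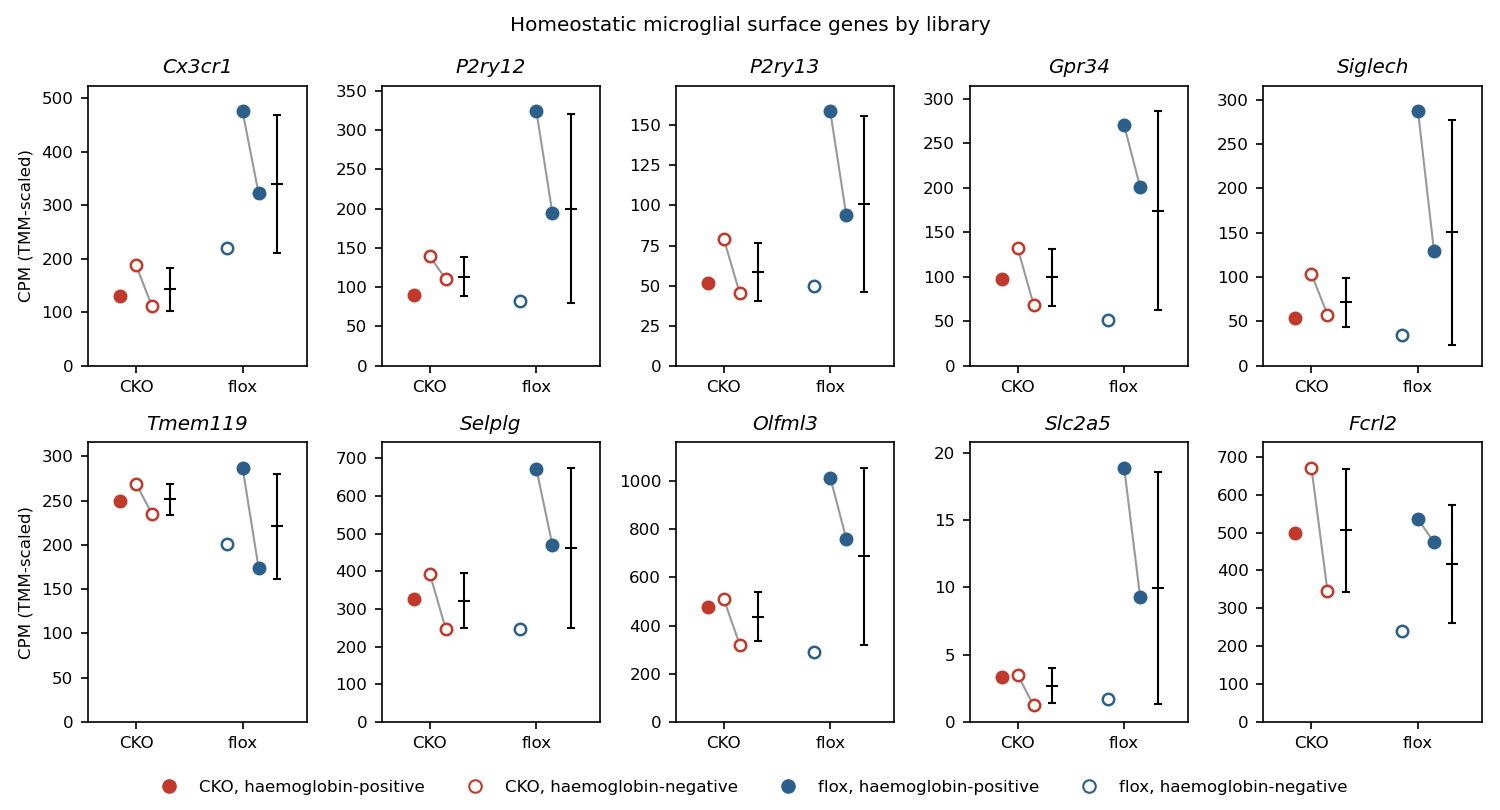
CPM of each gene (vertical axis, scaled by TMM) in the 3 CKO and 3 flox libraries; points are libraries in the order 1 to 3, filled where haemoglobin-positive, a grey line joins libraries of a shared code, and the bar is the mean ± SD (n = 3). For Cx3cr1 every flox library lies above every CKO library, while for the other genes flox 1 lies within or below the CKO range.

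As a set, 8 of the 10 genes had a lower fitted level in CKO, against 49.4% of all genes tested, and 2 (Tmem119 and Fcrl2) a higher one. The median log2 fold change was -0.79 over the 10 genes and 0.00374 over all genes tested. None of the 10 passed the test over all genes, against 0.00% of all genes, and 1 (Cx3cr1) had an unadjusted p under 0.05, against 2.81% of all genes in either direction. In this bulk measurement, fewer microglia among the sorted cells and less RNA of a gene per microglial cell cannot be told apart.

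The spread between flox libraries was wider than that between CKO libraries for all 10 genes, whereas this held for 36.7% of all genes tested. The median SD of log2 CPM over the 10 genes was 0.41 in CKO and 0.89 in flox, beside 0.38 in CKO and 0.29 in flox over all genes tested. Flox 2 and flox 3 both lay above all 3 CKO libraries for 8 of the 10 genes, an ordering met by 11.0% of all genes. Flox 2 was the highest of the 6 libraries for 9 genes, against 15.3% of all genes, and Fcrl2 was the exception. This ordering was picked out after the values were seen and is given as a description. Flox 1 lay below all CKO libraries for 6 genes, within the CKO range for 3 (P2ry13, Selplg and Slc2a5) and above all of them for 1 (Cx3cr1). The share of all genes with flox 1 in each of these positions was not computed. Without flox 2 the log2 fold change was -0.29 for P2ry12 and -0.20 for Siglech, and without flox 1 it was -1.19 and -1.54 for the same genes. P2ry13 came to -0.29 without flox 2 and -1.11 without flox 1, Gpr34 to -0.34 and -1.24, Selplg to -0.16 and -0.83, and Olfml3 to -0.27 and -1.02. Tmem119 ran from 0.04 without flox 3 to 0.42 without flox 2.

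By code, the levels parted mainly within flox. The WT3 mean was 3.14 times the WT1 level for P2ry12, 2.54 times for P2ry13, 4.56 times for Gpr34 and 6.0 times for Siglech. For Selplg, Olfml3 and Slc2a5 it was 2.31, 3.07 and 8.32 times the WT1 level, for Fcrl2 2.11 times, for Cx3cr1 1.81 times, and for Tmem119, the smallest, 1.15 times. The 2 CKO codes were closer to each other, with CKO5 at 0.704 to 1.51 times CKO2 over the 10 genes. WT1 was the lowest of the 4 codes for 9 genes, with Cx3cr1 as the exception, and WT3 the highest for 8. The 2 libraries of a code differed too: flox 2 exceeded flox 3 for all 10 genes, by 1.13-fold (Fcrl2) to 2.22-fold (Siglech), and CKO 2 exceeded CKO 3 for all 10, by 1.14-fold (Tmem119) to 2.85-fold (Slc2a5). The share of all genes with these orderings of codes and libraries was not computed, so the counts have no background beside them.

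The haemoglobin classes divide the libraries in the same way, since the WT3 libraries are haemoglobin-positive and flox 1 is haemoglobin-negative. Among the haemoglobin-negative libraries, the mean of CKO 2 and CKO 3 lay above flox 1 for 9 of the 10 genes, where 52.1% of all genes tested did so. The log2 ratios, CKO over flox, were 0.60 for P2ry12, 0.33 for P2ry13, 0.96 for Gpr34, 1.22 for Siglech and 1.09 for Fcrl2. Cx3cr1 was the exception, at -0.56. Among the haemoglobin-positive libraries, CKO 1 lay below the mean of flox 2 and flox 3 for 9 of the 10 genes, with log2 ratios of -1.62 for Cx3cr1, -1.52 for P2ry12, -1.29 for P2ry13, -1.28 for Gpr34 and -1.96 for Siglech. Fcrl2 hardly differed there (-0.013), and Tmem119 was the exception (0.11). The sign of the log2 ratio was thus opposite in the 2 classes for every gene other than Cx3cr1 and Tmem119. The share of all genes was computed neither for these opposite signs nor for the count in the haemoglobin-positive class. The part of whatever sets the haemoglobin level in these differences was not tested, and each class holds 1 code of either label.

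**Figure D2:**
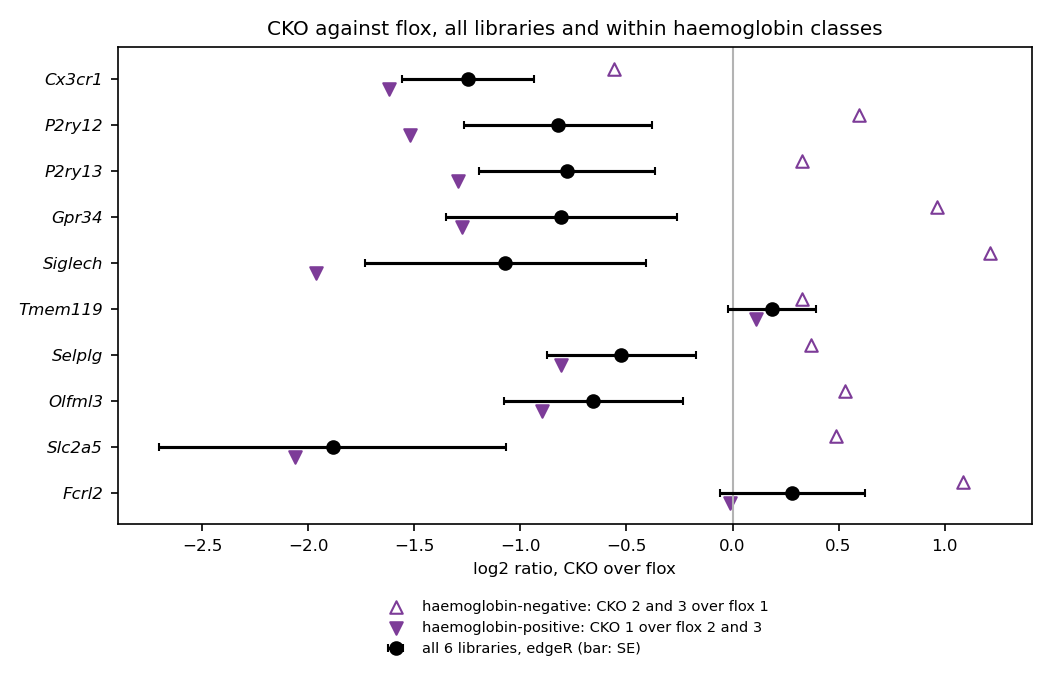
Log2 ratio of CKO over flox (horizontal axis) for each gene; black points are the edgeR fit over all 6 libraries with the SE, open triangles CKO 2 and CKO 3 over flox 1, filled triangles CKO 1 over flox 2 and flox 3. Cx3cr1 lies left of 0 in all 3 comparisons (-1.25, -0.56 and -1.62), whereas P2ry12, P2ry13, Gpr34, Siglech, Selplg, Olfml3 and Slc2a5 lie right of 0 in the haemoglobin-negative libraries.

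Whether Cx3cr1 moved with the other genes was described by its log2 CPM minus the mean log2 CPM of the other 9 in the same library. This difference was 0.31, 0.44 and 0.45 in CKO 1 to 3, against 1.65, 0.81 and 0.91 in flox 1 to 3. Its mean was 0.40 ± 0.08 in CKO and 1.12 ± 0.46 in flox (SD, n = 3 each), a difference of -0.73 between the means. Relative to the other genes, Cx3cr1 was thus lower in each CKO library than in any flox library. The mean log2 CPM of the other 9 genes themselves was 6.72, 7.12 and 6.35 in CKO 1 to 3, within the span of 6.14, 8.08 and 7.42 in flox 1 to 3.

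Taken gene by gene, the ratio of Cx3cr1 was lower in CKO against 8 of the 9 other genes, and without overlap between the groups against 6 (P2ry12, P2ry13, Tmem119, Selplg, Olfml3 and Fcrl2). Cx3cr1 stood at 2.52, 2.37 and 2.46 times P2ry13 in CKO 1 to 3, against 4.44, 3.0 and 3.44 times in flox 1 to 3. It stood at 0.260, 0.280 and 0.322 times Fcrl2 in CKO 1 to 3, against 0.921, 0.889 and 0.681 times in flox 1 to 3. The mean log2 ratio differed by -0.55 against P2ry13, -0.58 against P2ry12, -0.71 against Olfml3, -0.78 against Selplg, -1.43 against Tmem119 and -1.52 against Fcrl2. Each of these 6 had a two-sided exact permutation p of 0.1, the smallest that 3 libraries against 3 allow, and 0.15 after Benjamini-Hochberg adjustment over the 9 pairs. The ratio to Gpr34 (exact permutation p = 0.2, adjusted 0.257), to Siglech (p = 0.6, adjusted 0.675) and to Slc2a5 (p = 0.7, adjusted 0.7) overlapped between the groups. Flox 1 had the highest ratio for 8 of the 9 genes, Tmem119 being the other, where flox 3 did. All 9 ratios hold Cx3cr1, whose own CKO and flox libraries did not overlap, so they are not independent of that result. The share of all genes whose ratio with Cx3cr1 parts the groups was not computed.

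**Figure D3:**
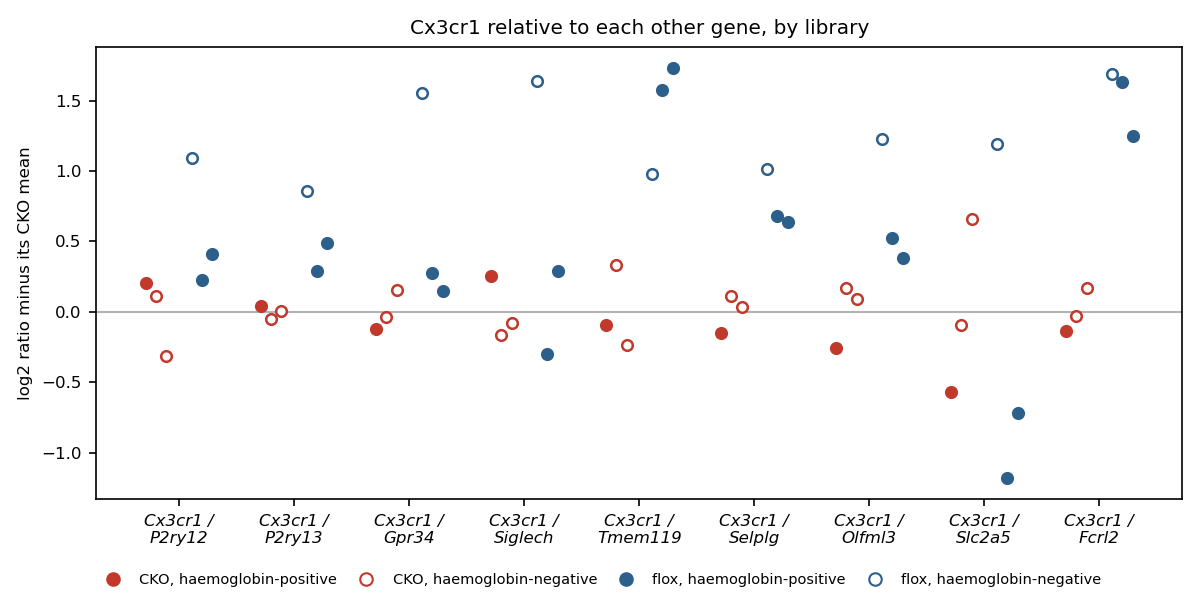
Log2 of the ratio of Cx3cr1 to each other gene (vertical axis, minus the mean of the 3 CKO libraries), with CKO libraries left and flox libraries right, filled where haemoglobin-positive. Flox points lie above all CKO points for P2ry12, P2ry13, Tmem119, Selplg, Olfml3 and Fcrl2, and the groups overlap for Gpr34, Siglech and Slc2a5.

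Across the 6 libraries, 7 of the genes followed each other closely (Pearson r of log2 CPM, given as a description over libraries that share codes, label and haemoglobin class). They were P2ry12, P2ry13, Gpr34, Siglech, Selplg, Olfml3 and Slc2a5, whose lowest pairwise r was 0.901 (P2ry12 with Slc2a5). P2ry12 and Siglech had r = 0.984, Gpr34 and Olfml3 0.990, and Selplg and Slc2a5 0.981. Cx3cr1 had its highest r with P2ry13 (0.896) and a median of 0.777 with the other 9. Tmem119 and Fcrl2 were the least like the rest, with medians of 0.260 and 0.579, and the r of Cx3cr1 with Tmem119 was -0.03. Among 8486 other genes with a mean of at least 10 CPM, the 5 whose pattern was most like that of Cx3cr1 were Orc5 (r = 0.999), U2surp (0.992), Fam222b (0.991), Taf9b (0.983) and Dmtf1 (0.980). Orc5 stood at 18.2, 20.5 and 17.2 CPM in CKO 1 to 3, against 21.1, 27.6 and 24.3 CPM in flox 1 to 3, a log2 fold change of -0.39 beside -1.25 for Cx3cr1. The gene most like Olfml3 (r = 0.997) and Selplg (r = 0.994) was Golm1, itself a homeostatic microglial gene. Among the genes most like other members were Ints6l for P2ry12, Zfx for P2ry13, Olfml3 for Gpr34, Gpx1 for Tmem119, Herc1 for Slc2a5 and Tcn2 for Fcrl2, with r between 0.985 and 0.998.

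Levels were compared between genes per kilobase of exon. Fcrl2 was the most abundant in every library, at 217 ± 69.6 CPM per kb in CKO and 178 ± 66.9 in flox (SD, n = 3 each), with the exon length taken from Fcrls. Tmem119 followed in the mean over 6 libraries, at 109 ± 7.37 CPM per kb in CKO and 95.4 ± 25.5 in flox, then Selplg (75.4 ± 17.2 in CKO and 108 ± 49.7 in flox), Olfml3 (70.9 ± 16.5 in CKO and 112 ± 59.7 in flox) and Gpr34 (47.6 ± 15.3 in CKO and 83.3 ± 53.4 in flox). P2ry12 came next (44.4 ± 9.67 CPM per kb in CKO and 78.6 ± 47.4 in flox), then Cx3cr1 (31.8 ± 8.89 in CKO and 75.4 ± 28.5 in flox), Siglech (21.1 ± 8.19 in CKO and 44.4 ± 37.7 in flox) and P2ry13 (23.2 ± 7.18 in CKO and 39.9 ± 21.7 in flox). The exon length of Olfml3 includes an annotated transcript longer than the RefSeq gene, which lowers its level on this scale. Neighbours in this order overlapped over the 6 libraries, apart from the last step to Slc2a5, which stood at 0.796 ± 0.376 CPM per kb in CKO and 2.93 ± 2.54 in flox. Cx3cr1 ranked 7th of the 10 in every library other than flox 1, where it ranked 4th. Tmem119 ranked 2nd in the 3 CKO libraries and flox 1 and 6th in flox 2 and flox 3.

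**Figure D4:**
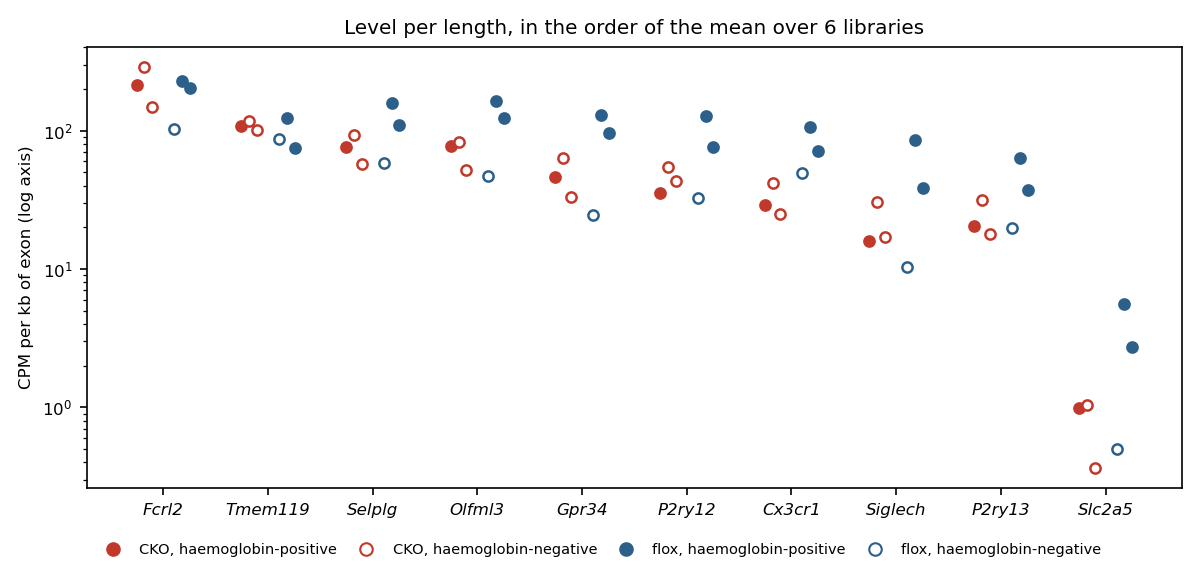
CPM per kilobase of exon (vertical log axis) for the 10 genes in the order of their mean over 6 libraries, CKO libraries left and flox libraries right, filled where haemoglobin-positive. Fcrl2 is the highest in every library and Slc2a5 the lowest.

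Homeostatic genes beyond the surface set were mixed in direction. Of 26 listed, 25 were tested, of which 14 had a lower and 11 a higher fitted level in CKO, with a median log2 fold change of -0.05, and 0 passed in either direction. The 3 of smallest unadjusted p were Ecscr, an endothelial and microglial surface gene, Sall1, the transcription factor gene that keeps microglia distinct from other macrophages, and Pros1, the gene of protein S, a bridging ligand for dying cells. Sall1 stood at 1.16, 1.84 and 1.54 CPM in CKO 1 to 3, and at 0.969, 17.5 and 16.8 CPM in flox 1 to 3. Ecscr stood at 10.4, 5.95 and 5.55 CPM in CKO 1 to 3, and at 8.18, 32.1 and 32.2 CPM in flox 1 to 3. Pros1 stood at 30.4, 39.02 and 39.02 CPM in CKO 1 to 3, and at 37.4, 79.2 and 68.9 CPM in flox 1 to 3. In all 3 genes flox 1 lay inside or below the CKO range.

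The ordering with flox 2 and flox 3 above all CKO libraries was met by 11 of these 25 genes (11.0% of all genes tested), and in all 11 flox 1 lay within or below the CKO range. They included Sall1, Pros1, Gas6, Mef2c, Sparc, Slco2b1, Golm1, Crybb1, Ecscr and Bin1. Golm1, chosen after its values were seen, stood at 69.03, 81.8 and 40.1 CPM in CKO 1 to 3, and at 39.5, 224 and 139.9 CPM in flox 1 to 3. Csf1r, Spi1, Irf8 and C1qa, which other macrophages also express, did not have this ordering.

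**Figure D5:**
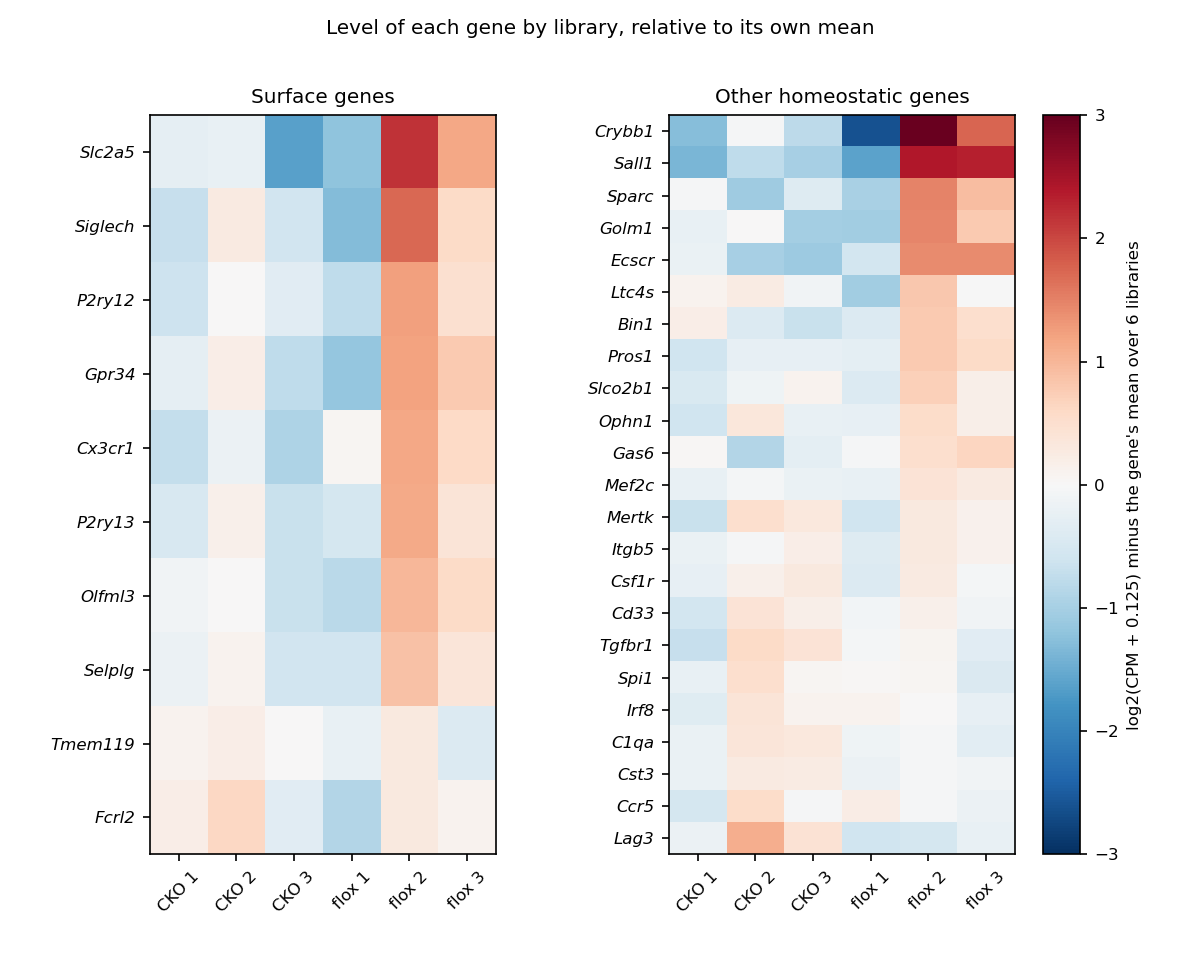
Level of each gene in each library as log2 CPM with a small offset, minus the gene's mean over the 6 libraries (colour scale from -3 to 3), with the 10 surface genes on the left and 23 of the 25 other homeostatic genes tested on the right, both ordered by flox 2. In the left panel flox 2 and flox 3 are red in every row from Slc2a5 to Selplg, where flox 1 is blue other than for Cx3cr1, and the right panel shows the same in Crybb1, Sall1, Sparc, Golm1 and Ecscr.

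Among 13 genes for nucleotide sensing and breakdown, the surroundings of P2ry12 and P2ry13, 7 had a lower and 6 a higher fitted level in CKO, and 0 passed. Adora3, an adenosine receptor gene, stood at 5.33, 9.63 and 3.96 CPM in CKO 1 to 3, and at 5.13, 33.7 and 22.7 CPM in flox 1 to 3, with flox 2 and flox 3 above all CKO libraries and flox 1 inside the CKO range. P2rx4, an ATP-gated channel gene that is known to rise in activated microglia, stood at 101, 211 and 119 CPM in CKO 1 to 3, and at 93.4, 96.2 and 106 CPM in flox 1 to 3. Adora2a, another adenosine receptor gene, stood at 0.206 to 2.08 CPM in CKO and 0 to 0.920 CPM in flox. Of 20 listed partners of fractalkine, selectin, Siglec and TGF-beta signalling, 16 were tested, 6 with a lower and 10 with a higher fitted level in CKO, and 0 passed.

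Hcst, an adaptor gene of immune receptors, stood at 30.4, 56.4 and 63.0 CPM in CKO 1 to 3, and at 32.3, 29.7 and 28.3 CPM in flox 1 to 3. Gcnt1, whose enzyme builds the glycans of PSGL-1, stood at 24.9, 33.6 and 28.6 CPM in CKO 1 to 3, and at 28.4, 47.8 and 38.4 CPM in flox 1 to 3. Of 20 disease-associated microglial genes, induced around lipid and debris, 8 had a lower and 12 a higher fitted level in CKO, and 0 passed by edgeR. Flox 2 and flox 3 lay above all CKO libraries for 5 of the 20 (Lpl, Cd9, Igf1, Ctsd and Ch25h), against 11.0% of all genes tested. In 4 of these 5, flox 1 did not lie above all CKO libraries. Ch25h, the gene of cholesterol 25-hydroxylase, stood at 18.3, 15.3 and 9.61 CPM in CKO 1 to 3, against 31.5, 46.8 and 30.8 CPM in flox 1 to 3. Like Cx3cr1 it had every flox library above every CKO library, with a log2 fold change of -1.34 (SE 0.29), an adjusted p of 0.9996 by edgeR and of 0.0493 by DESeq2, which called it. Apoe, a lipid carrier gene, stood at 12603, 40135 and 28306 CPM in CKO 1 to 3, and at 15498, 13323 and 11743 CPM in flox 1 to 3. Lpl, the gene of lipoprotein lipase, stood at 92.3, 56.4 and 25.5 CPM in CKO 1 to 3, and at 90.1, 127 and 133 CPM in flox 1 to 3.

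The summed markers of each other cell type that the gate could hold overlapped between CKO and flox. The 12 monocyte markers summed to 679 to 913 CPM in CKO and 684 to 862 CPM in flox, and the 9 markers of border-associated macrophages to 928 to 1992 CPM in CKO and 695 to 1102 CPM in flox. Of the 12 monocyte markers, 2 (Ly6c2 and Plac8) were lower in every haemoglobin-positive library than in any haemoglobin-negative one, and 2 (Fn1 and F13a1) were higher. Ly6c2 stood at 194, 286 and 258 CPM in CKO 2, CKO 3 and flox 1 and at 84.9, 17.98 and 24.9 CPM in CKO 1, flox 2 and flox 3, whereas Fn1, a fibronectin gene, stood at 146, 159 and 151 CPM in CKO 2, CKO 3 and flox 1 and at 376, 576 and 486 CPM in CKO 1, flox 2 and flox 3. Another 2 monocyte markers were higher in every CKO library than in any flox library. Over all genes tested, 8.0% had no overlap between CKO and flox, in either direction. S100a4 stood at 32.7, 42.2 and 44.2 CPM in CKO 1 to 3 and at 23.4, 24.8 and 16.8 CPM in flox 1 to 3, and Hp at 15.1, 7.03 and 7.66 CPM in CKO 1 to 3 and at 4.84, 3.01 and 1.77 CPM in flox 1 to 3, and neither passed (adjusted p = 0.9996 by edgeR). Of the 8 T and NK cell markers, 4 were lower in every haemoglobin-positive library, among them Cd3e, at 8.46, 8.74 and 8.57 CPM in CKO 2, CKO 3 and flox 1 and at 0.0613, 0.415 and 1.39 CPM in CKO 1, flox 2 and flox 3. All 8 rod photoreceptor markers were higher in every haemoglobin-positive library. Of the 9 markers of border-associated macrophages, Ms4a7, the largest in their sum, was lower in every haemoglobin-positive library, and Cd163 was higher. Ms4a7 stood at 417, 1692 and 1239 CPM in CKO 1 to 3 and at 760, 394 and 437 CPM in flox 1 to 3. Stab1 was higher in every CKO library than in any flox library. The share of all genes that part by haemoglobin class in this way was not computed, so those marker counts have no background beside them. The part of admixed monocytes, border-associated macrophages, T cells or rods in the levels of the surface genes was not tested.

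Siglech also marks plasmacytoid dendritic cells, whose 7 markers summed to 584 to 1033 CPM in CKO and 514 to 802 CPM in flox, mostly Bst2 and Tcf4, which other cells express. The more restricted of the 7 markers stood lower. Klk1 was at 0, 10.7 and 1.65 CPM in CKO 1 to 3 and at 0 in each flox library. Ly6d was at 0, 17.8 and 6.68 CPM in CKO 1 to 3 and at 0, 4.97 and 0 CPM in flox 1 to 3. Ccr9 was at 2.64 to 7.12 CPM in CKO and 1.55 to 2.97 CPM in flox. Cox6a2 was at 1.96 to 11.6 CPM in CKO and 2.91 to 5.86 CPM in flox, and Spib at 1.04 to 2.34 and 0.259 to 0.695 CPM. Siglech was highest in flox 2 and flox 3. The part of plasmacytoid dendritic cells in its level was not tested. The 8 T and NK cell markers summed to 50.2 to 150 CPM in CKO and 60.7 to 152 CPM in flox, and the 5 B cell markers to 12.8 to 33.3 CPM in CKO and 9.88 to 41.4 CPM in flox. The 7 neutrophil markers summed to 5.28 to 161 CPM in CKO and 23.0 to 206 CPM in flox, with Camp at 0 in all 6 libraries. Rod photoreceptor markers summed to 6329 to 17668 CPM in CKO and 6979 to 14984 CPM in flox, Müller glia and astrocyte markers to 653 to 1162 CPM in CKO and 528 to 747 CPM in flox, and endothelial markers to 28.8 to 95.2 CPM in CKO and 39.4 to 130.0 CPM in flox. The 5 erythroid markers, 4 of which set the haemoglobin classes, summed to 0.0837 to 1930 CPM in CKO and 0.678 to 4265 CPM in flox.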

How the data were processed

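The authors deposited 1 table of estimated counts per gene symbol, unscaled, with 1 column for each of the 6 libraries, of whose values 16.6% are not whole. Reads were handled with fastp 0.18.0 and HISAT2 2.2.4 on mm10, per the submitters' processing notes; for the counting tool, its annotation and its strand setting, the sources used here name nothing. Of 21956 rows, 83 without a symbol (0.0122% to 0.0185% of counts) were left out and 22 repeated symbols were summed. Counts were rounded and tested with edgeR 4.0.16 in R 4.3.3 (filterByExpr, TMM, robust quasi-likelihood fit on the label alone, prior count 0.125, Benjamini-Hochberg threshold 0.05). The SE is the log2 fold change divided by the root of its F statistic. DESeq2 1.42.0 and limma 3.58.1 (voom) were alternatives. Coordinates and exon lengths are from GENCODE M21 (GRCm38). No table used here pairs Fcrl2 with Fcrls; the pairing is one of nomenclature. The fit was tested on simulated data.

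The members, lists and tests were chosen with earlier results of these data known. Genes named were the 10 members, Cd36, up to 3 genes of smallest p per list and the genes of most similar pattern; others were named after their values were seen, and some that the rule names are not reported here. A count of 0 allows up to 3 counts, 0.150 to 0.223 CPM, for counting error only. No label says that libraries come from separate mice, so p-values measure the spread between these libraries. Alternatives covered scaling, filter, tool, prior count, summed codes, the title number as a block, the haemoglobin class, within-class ratios and each library left out.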

Additional observations from a re-analysis of the deposited data

How the results depend on the processing

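Over the 17 fits, none of the 10 genes passed, and Cx3cr1 kept its sign, with log2 fold changes of -1.49 to -0.64. Within the haemoglobin-negative libraries Cx3cr1 was at -0.56. Without both WT3 libraries, an alternative added after seeing the data in which flox 1 alone stands for flox and is assumed to vary like the CKO libraries, 1 gene (Cx3cr1) instead of 8 had a lower fitted level in CKO. The log2 fold changes were then 0.44 for P2ry12, 0.22 for P2ry13, 0.93 for Gpr34, 1.02 for Siglech, 0.36 for Selplg, 0.58 for Olfml3 and 0.65 for Slc2a5. Within the haemoglobin-negative libraries they were 0.60, 0.33, 0.96, 1.22, 0.37, 0.53 and 0.49 in the same gene order. In both settings flox 1 is the only flox library. Fcrl2 was at -0.013 within the haemoglobin-positive ones. The mean of Cx3cr1 minus the other genes was -0.73 for CKO minus flox. It was -1.20 within the haemoglobin-negative libraries and -1.25 without WT3, both with flox 1 as the only flox library. Within the haemoglobin-positive libraries, where CKO 1 is the only CKO library, it was -0.56, and with the haemoglobin class as a term -0.88. With 1 library left out it ran from -0.88 without flox 2 to -0.46 without flox 1. The genes whose groups did not overlap numbered 1 in the main comparison (8.0% of all genes tested, in either direction), 2 with codes summed (Tmem119, higher in CKO, joined Cx3cr1; 24.4% of all genes), and 1 to 8 with 1 library left out: 8 without flox 1 (21.7% of all genes) and 2 without flox 2 (13%). Genes called over the whole table numbered 0 in the main comparison, 18 by DESeq2, 2 with the haemoglobin class as a term and 2 without WT3.

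With the replicate block on the title number, Cx3cr1 was at -1.21, the same 8 genes were lower and 0 genes were called. Same-numbered libraries had deviations that correlated at -0.416, 0.048 and -0.332, so the numbers give no pairing. Library totals alone moved the median of all genes to -0.12, and 8 of the 10 genes stayed lower.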
